A study of Mus musculus with 30 samples.

Results

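Mitochondrial dynamics and mitophagy were followed through 10 genes: Mfn1, Mfn2 and Opa1 of fusion, Dnm1l, Fis1 and Mff of fission, and Pink1, Bnip3, Bnip3l and Fundc1 of mitophagy. The genes were taken by symbol from the deposited count table of mouse heart RNA. All 10 matched 1 row each, of 55487 rows in the table, and all 10 passed the filter on low counts in both cohorts of the study. The study has 30 hearts, taken 8 weeks after sham surgery or transverse aortic constriction (TAC), in which a clip narrows the aorta and loads the left ventricle with pressure. The question set by its design text is the role of Cpt1a, the enzyme that passes long-chain fatty acids into mitochondria, in the heart under pressure load.

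Both cohorts had sham and TAC arms. In the floxed cohort every mouse carried CPT1a floxed alleles or their cardiac deletion. Its controls were CPT1a floxed mice after sham surgery (FF_sham, n = 4) or TAC (FF_TAC, n = 4). Its knockouts were labelled cardiac specific CPT1a knockout, after sham surgery (KO_sham, n = 4) or TAC (KO_TAC, n = 4), while the design text calls the same manipulation a knockdown. The titles of the KO_TAC hearts name both surgeries, and their genotype and treatment labels, which were used, give knockout and TAC. The AAV9 cohort was C57Bl/6 mice given PBS and sham surgery (PBS_sham, n = 3), PBS and TAC (PBS_TAC, n = 3), AAV9.Cpt1a and sham surgery (AAV_sham, n = 4) or AAV9.Cpt1a and TAC (AAV_TAC, n = 4). AAV9.Cpt1a is a viral vector that carries Cpt1a for expression in heart muscle. The Cre driver, the age of the mice, and which of the 0.016 and 0.018 inch clips each mouse received are not given in the sources used here. Libraries are named by group and by the number in their title. No label states that the numbered hearts of a group came from separate animals, so the p-values measure the spread between these samples.

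Mitochondria fuse and divide continuously. Mfn1 and Mfn2, the mitofusins, join outer membranes, and Opa1 joins inner membranes and holds the cristae in shape. Dnm1l (Drp1) is the dynamin that constricts the organelle, and Mff and Fis1 are outer membrane proteins, of which Mff is its main receptor. In mitophagy, the removal of mitochondria by autophagy, Pink1 is the kinase that marks depolarised mitochondria for Parkin, while Bnip3, Bnip3l (Nix) and Fundc1 are receptors that bind the autophagosome directly. Bnip3 is a textbook target of hypoxia-inducible factors. Heart muscle is dense with mitochondria and depends on these genes for their upkeep.

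The stretches before the annotated starts of 2 of the genes are shown because the results turn on Opa1, and because Bnip3 is read below beside other hypoxia-inducible genes. The sequences are from RefSeq (build GRCm38.p6), 250 bases on the strand of the gene, and end at the base before the start. Capitals mark the motif found by search. In Opa1 it is the NRF1 core palindrome CGCATGCG, which begins 58 bases before the start. In Bnip3 it is the hypoxia response core ACGTG, which overlaps itself on the opposite strand. The marked stretch CACGTG begins 108 bases before the start, and ACGTG on the strand shown begins 107 bases before it.
Opa1 chr16:29579084-29579333 (+): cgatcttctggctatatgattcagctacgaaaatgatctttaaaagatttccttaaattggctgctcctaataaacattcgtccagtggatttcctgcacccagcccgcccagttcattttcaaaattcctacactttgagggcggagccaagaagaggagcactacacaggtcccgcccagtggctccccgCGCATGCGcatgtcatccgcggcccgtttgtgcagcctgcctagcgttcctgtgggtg
Bnip3 chr7:138909507-138909756 (-): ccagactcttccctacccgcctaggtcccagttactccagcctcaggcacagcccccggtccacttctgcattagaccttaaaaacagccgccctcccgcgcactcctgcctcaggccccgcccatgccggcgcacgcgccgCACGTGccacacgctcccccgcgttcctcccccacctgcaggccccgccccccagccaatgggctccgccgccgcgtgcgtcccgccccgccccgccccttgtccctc
The search covered windows from 250 bases before to 50 after each start, on both strands, and 9 of the 10 genes had a window, 14 windows in all (Bnip3l had none). The NRF1 letters CGCATGCG were in the window of 1 of the 9 genes, Opa1 (1 of the 14 windows), and in 1.87% of all 32851 RefSeq windows of that length. ACGTG was found in 2 of the 9, Bnip3 and Mfn2 (3 of the 14 windows), and in 19.6% of all windows. The ETS motif CCGGAAGT was found in 2, Mfn1 and Fis1 (3 of the 14 windows), and in 3.89% of all windows. The ERR motif TCAAGGTCA and the CRE motif TGACGTCA were in no window of the 9 genes, and in 0.423% and 1.79% of all windows. Such a match describes the letters and was not tested as a binding site.

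In the GENCODE M21 annotation of GRCm38, Opa1 (ENSMUSG00000038084) is at chr16:29579334-29654884 on the forward strand in 30 merged exons, and Fundc1 (ENSMUSG00000025040) is at chrX:17556564-17572325 on the reverse strand. Pink1 (ENSMUSG00000028756) lies at chr4:138313409-138326307 and Bnip3 (ENSMUSG00000078566) at chr7:138890836-138909519, both on the reverse strand. The levels of 5 genes are uncertain, because how the authors' counting treated strand and reads with several matches is not given in the sources used here. Exons of Bnip3, Dnm1l and Mff overlap a gene on the opposite strand by 504, 243 and 195 bases, and those of Pink1 overlap Mir7019 and Gm27646 on the same strand by 179 bases. Bnip3l has a processed copy, Bnip3l-ps, which matches it over 1131 bases at 99.4% identity and holds 2652 counts beside its 30795 over all libraries. The copies of Bnip3 with any counts held at most 104, beside its 59808.

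Libraries differed in ways that the groups do not describe. Total counts ran from 14839758 to 22070373. In 7 libraries the summed haemoglobin transcripts were 1.4 to 51.1 CPM (counts scaled to library size), against 294 to 943 in the other 23. The 7 were the libraries labelled FF_TAC 2, FF_TAC 3 and KO_sham 2 and all 4 of KO_TAC. The same 7 had the higher early response genes (mean log2 CPM of 12 such genes 6.84 to 8.34, against 3.11 to 5.82), so no KO_TAC library was haemoglobin-high, and 3 libraries of other groups shared the low class. Cpt1a itself was 38.6 to 53.5 CPM in FF_sham, 20.9 to 23.8 in 3 KO_sham libraries and 11.3 to 19.8 in KO_TAC. It went against the label in 3 libraries: 46.8 in the library labelled KO_sham 2, and 21.0 and 16.7 in those labelled FF_TAC 2 and 3, beside 49.9 and 34.9 in FF_TAC 1 and 4. In the AAV9 cohort Cpt1a was 54.9 to 85.9 in AAV_sham against 36.7 to 70 in PBS_sham, and 43.8 to 61.5 in AAV_TAC against 39.5 to 59.1 in PBS_TAC, so both pairs overlapped. The overlap of the sham pair rests on PBS_sham 3 (70), since PBS_sham 1 and 2 were at 36.7 and 48.9. PBS_sham 3 stood apart by its cell type markers and is taken up with that cohort. Heart muscle markers (8 genes, none at 0 in any library) summed to 53000 to 72100 CPM in the other 29 libraries. The atrial marker Myl7 was at 3170 CPM in KO_TAC 1 and ran from 0 (FF_TAC 3) to 1120 (FF_sham 2) elsewhere.

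Per kilobase of exon, the 10 genes were expressed at very different levels. Over the 30 libraries, Pink1 had the highest mean, 251 CPM per kb, followed by Mfn2 at 165. Mfn1 (64.2), Bnip3 (49.9) and Fis1 (42.9) formed a middle range. Dnm1l (20.5), Opa1 (19.2), Bnip3l (14.8), Mff (10.1) and Fundc1 (9.7) were lowest. Of the mitofusins, Mfn2 was thus the more abundant transcript, and among the mitophagy genes the kinase was far above the receptors. Several neighbours in this order did not differ beyond their spread between libraries. In FF_sham, Dnm1l (20.5 ± 1.13) and Opa1 (20.8 ± 1.24) lay together, as did Mff (10.4 ± 0.301) and Fundc1 (10.6 ± 0.992; SD, n = 4). Bnip3 (40.9 ± 6.43) and Fis1 (41 ± 3.19) also lay together there.

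The genes also differed in how far they varied between groups. The ratio of the highest to the lowest group mean was 2.09 for Bnip3 and 1.7 for Opa1, and only 1.14 for Bnip3l and 1.27 for Dnm1l. Bnip3 was also the least even within groups, with a median SD of 16.8% of the group mean, while that of Dnm1l was 4.66%. The plot of levels by library shows both features.

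**Figure D1:**
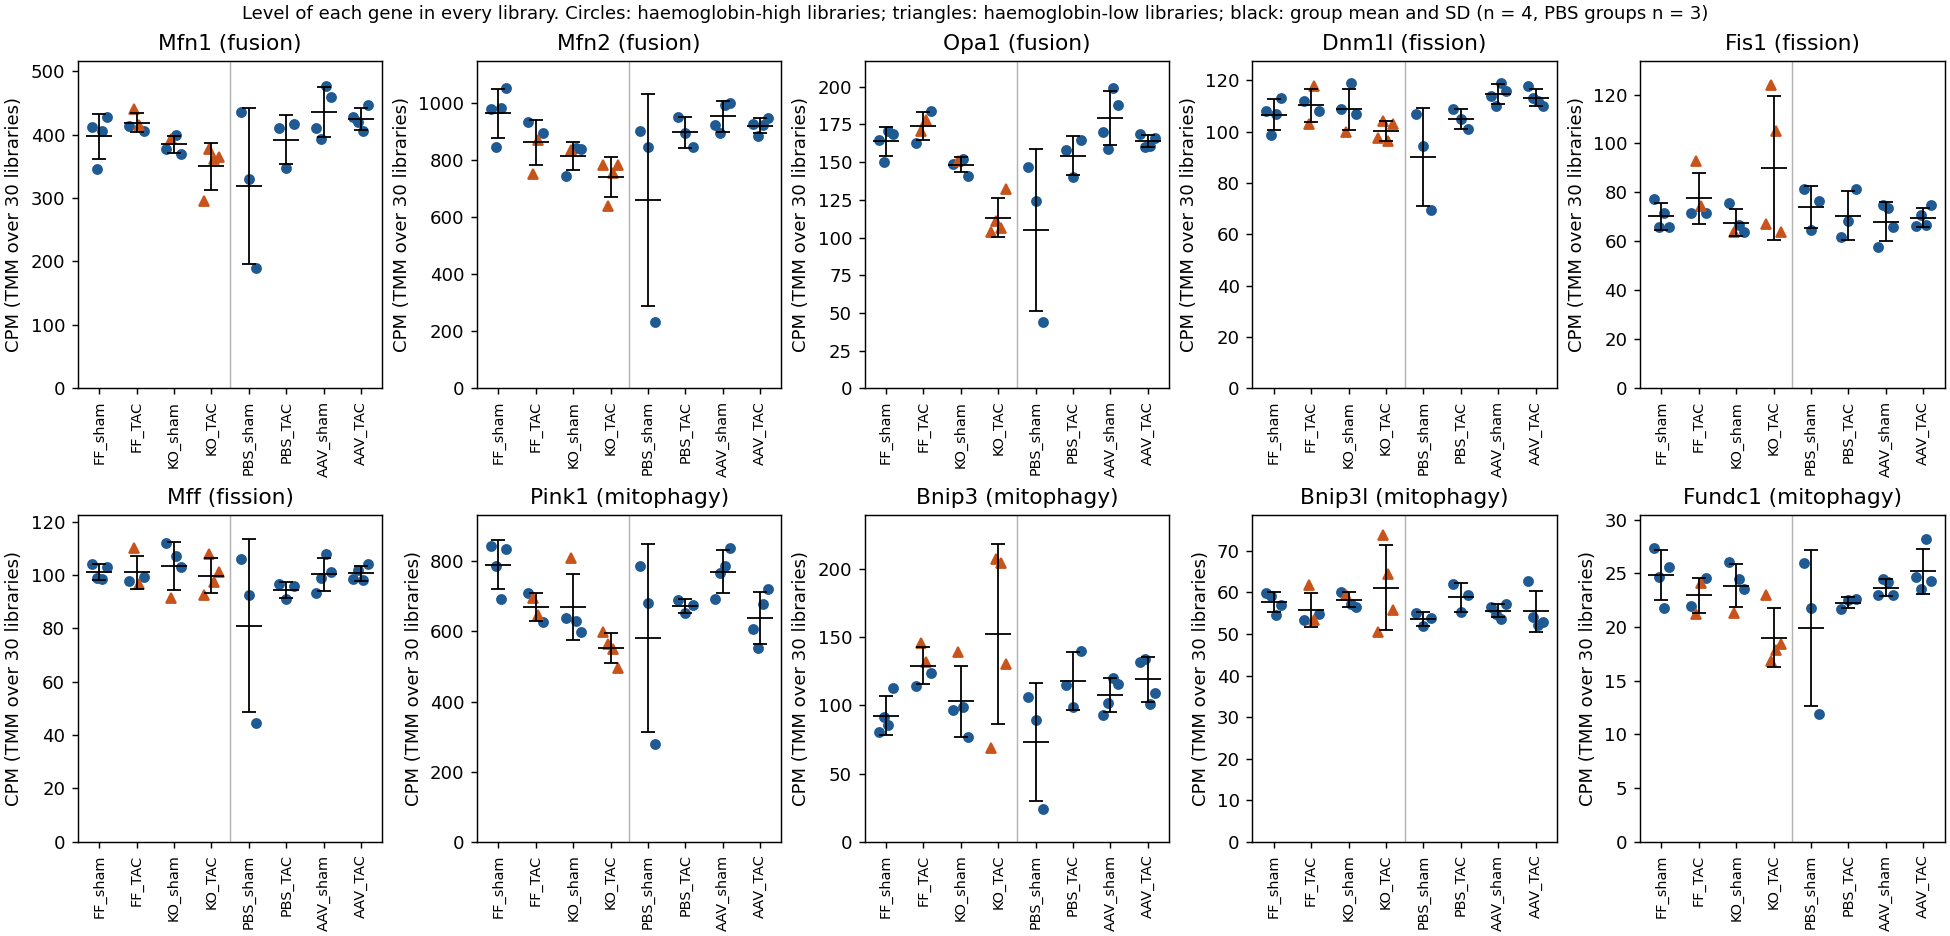
Level of each of the 10 genes in every library (vertical axis, CPM scaled by TMM over 30 libraries, from 0) by group (horizontal axis); circles are haemoglobin-high and triangles haemoglobin-low libraries, and black marks are group means with SD. The 4 KO_TAC libraries sit lowest of the floxed cohort for Opa1, at 104 to 132 CPM, and 1 PBS_sham library lies far below its group in 8 genes.

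In the floxed cohort, Opa1 was the one member called in both comparisons of KO_TAC. Under pressure load the knockout hearts had 0.662 times the Opa1 transcript of the floxed controls. Opa1 was 104, 111, 106 and 132 CPM in KO_TAC libraries 1 to 4, against 163, 171, 178 and 184 in FF_TAC. It was 149, 151, 152 and 141 in KO_sham and 165, 150, 171 and 169 in FF_sham. All 4 KO_TAC libraries were below each of the other 12 floxed libraries, while the KO_sham libraries lay at the lower edge of FF_sham. KO_TAC was lower than FF_TAC by a log2 fold change of -0.60 (SE 0.09, adjusted p = 0.00117 by edgeR's quasi-likelihood test over all genes). KO_TAC was lower than KO_sham by -0.38 (SE 0.09, adjusted p = 0.00939), a ratio of 0.77. In controls, the TAC difference in Opa1 was 0.07 (SE 0.09, adjusted p = 0.758), and in sham hearts the knockout differed by -0.15 (SE 0.09, adjusted p = 1). The difference between the TAC effects of the 2 genotypes was -0.45 (SE 0.13, unadjusted p = 0.00275), which did not pass adjustment over all genes by edgeR (adjusted p = 0.153) and passed by DESeq2 (-0.45, adjusted p = 0.0112).

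These calls were not rare among genes. In KO_TAC against FF_TAC, 1 of the 10 members was called at an adjusted p under 0.05, where 14.3% of all genes tested were called and 6.8% were called lower. In KO_TAC against KO_sham 2 of 10 were called, Opa1 and Fundc1, both lower, where 25.8% of all genes were called and 11.5% called lower. Counts of this size are near the background and are not a result about the 10 genes as a set. The members' median log2 fold change was -0.16 in KO_TAC against FF_TAC and -0.12 in KO_TAC against KO_sham, beside medians over all genes of 0.04 and 0.02.

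The difference in Opa1 between KO_TAC and FF_TAC was also fitted with haemoglobin class as a term. All 4 KO_TAC libraries were haemoglobin-low, so that term rests on the libraries labelled FF_TAC 2, FF_TAC 3 and KO_sham 2. These are the same 3 whose Cpt1a went against their labels, and these features cannot be told apart in them. In the 3 haemoglobin-low libraries outside KO_TAC Opa1 was 151 to 178 CPM, within the 141 to 184 of the 9 haemoglobin-high floxed libraries. With haemoglobin class as a term, the difference from FF_TAC was -0.61 (adjusted p = 0.00501, where 7.23% of all genes were called). When only haemoglobin-low libraries were compared, 4 against 2, it was -0.62 (SE 0.16, adjusted p = 0.277), in a comparison where 0% of all genes were called. The 2 were those labelled FF_TAC 2 and FF_TAC 3, whose Cpt1a was at the knockout level. The difference from KO_sham was -0.39 with the haemoglobin term and did not pass (adjusted p = 0.0885, where 1.75% of all genes were called). Leaving out together the 3 libraries whose Cpt1a went against their labels, a choice made after seeing the data, gave -0.61 against FF_TAC (adjusted p = 0.00289) and -0.38 against KO_sham (adjusted p = 0.0203), where 22.4% and 23.4% of all genes were called. Leaving out single libraries, Opa1 was called in 8 of 8 fits of either comparison, and in other settings in 10 of 11 against FF_TAC and 8 of 10 against KO_sham.

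Other measures of the KO_TAC hearts moved with Opa1. Transcripts encoded by mitochondrial DNA were 15.7, 12.1, 12.4 and 18.7% of counts in KO_TAC 1 to 4, against 19.3 to 26% in the other 26 libraries. Fibroblast markers (7 genes, none at 0 in any library) summed to 1860 to 2410 CPM in KO_TAC, against 1000 to 1140 in FF_TAC and 913 to 1310 in KO_sham, and 4 of 7 were called higher in each comparison. Endothelial markers (6 genes, none at 0) summed to 551 to 705 CPM in KO_TAC, against 838 to 998 and 714 to 904, with 3 and 4 of 6 called lower. Macrophage markers (7 genes, none at 0) summed to 415 to 484 CPM in KO_TAC, against 256 to 305 in FF_TAC and 313 to 655 in KO_sham, with 4 of 7 called higher against FF_TAC and 1 of 7 lower against KO_sham. The sum of the 8 heart muscle markers overlapped between the groups, at 53000 to 72100 in KO_TAC, 63100 to 71800 in FF_TAC and 59100 to 62700 in KO_sham. Of these 8, 2 were called lower against FF_TAC (median log2 fold change -0.23), and 3 were called lower and 1 higher against KO_sham (median 0.06). The part of these measures in the level of Opa1 was not tested. In RNA of heart tissue, fewer cells of a type and less RNA per cell cannot be told apart.

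**Figure D2:**
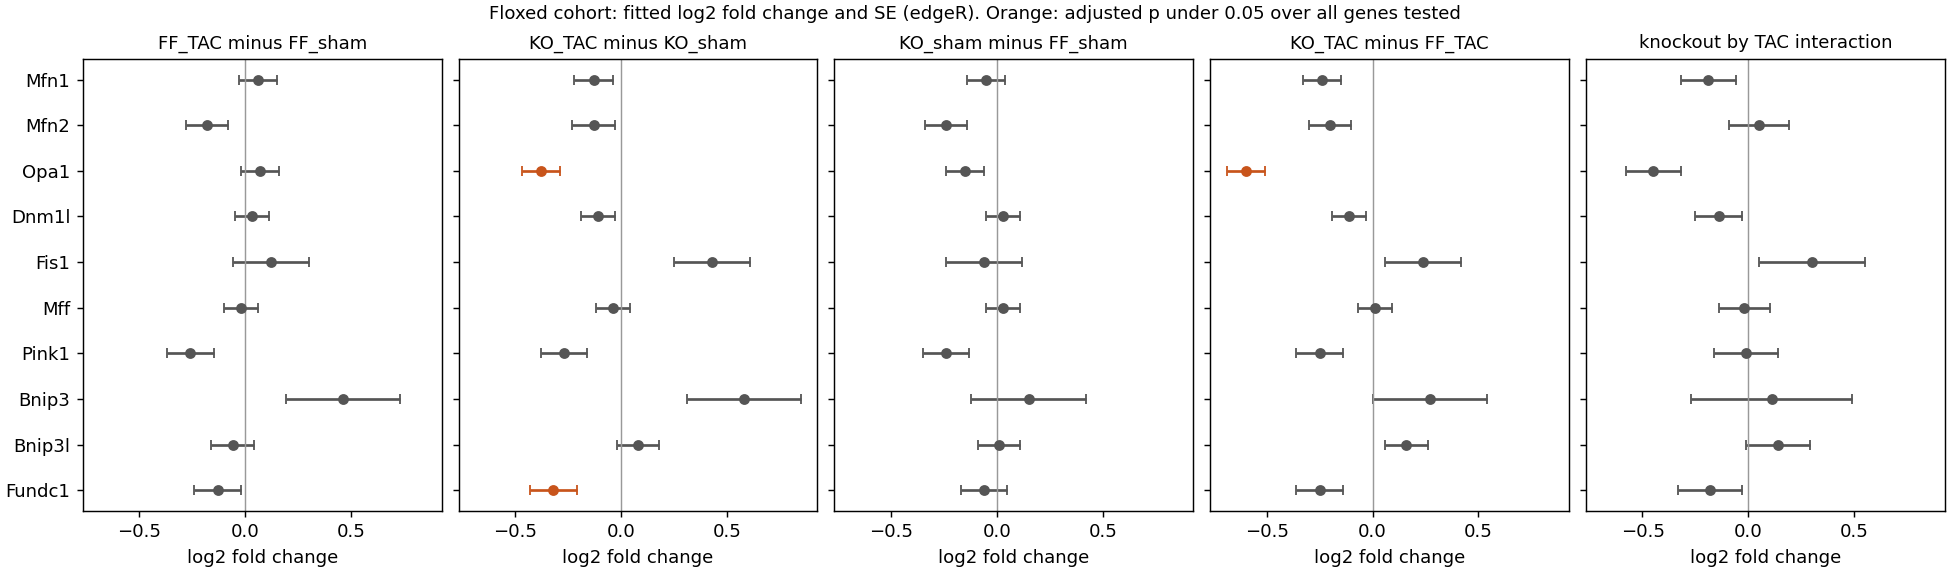
Fitted log2 fold change with SE (horizontal axis) of each gene (rows) in the 4 comparisons and the interaction of the floxed cohort; orange marks an adjusted p under 0.05 over all genes tested. Opa1 is called in both comparisons of KO_TAC and Fundc1 in that with KO_sham, and no other point is orange.

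Neither mitofusin was called by edgeR in the floxed cohort. Mfn1 was 296, 377, 362 and 364 CPM in KO_TAC, against 414, 440, 415 and 406 in FF_TAC and 377, 393, 399 and 369 in KO_sham. The KO_TAC values lay below all of FF_TAC and overlapped KO_sham. Against FF_TAC Mfn1 stood at a log2 fold change of -0.24 (SE 0.09) and did not pass by edgeR (adjusted p = 0.0982), while DESeq2 called it at the same size (-0.24, adjusted p = 0.0378). Mfn2 was 978, 845, 980 and 1050 in FF_sham, 742, 834, 842 and 837 in KO_sham, 931, 750, 870 and 895 in FF_TAC and 783, 637, 753 and 782 in KO_TAC. All 4 libraries labelled KO_sham, among them KO_sham 2 whose Cpt1a was at the control level, were below all 4 of FF_sham for Mfn2, at a log2 fold change of -0.24 (SE 0.10, unadjusted p = 0.03, adjusted p = 0.932). Mfn2 stood at -0.20 in KO_TAC against FF_TAC (SE 0.10, adjusted p = 0.197), and the interaction was 0.05 (SE 0.14).

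Fission genes gave no call in the floxed cohort. Dnm1l was 97.7, 104, 96.4 and 103 CPM in KO_TAC and 112, 103, 118 and 108 in FF_TAC, a log2 fold change of -0.11 (SE 0.08, adjusted p = 0.362). Mff was 92.4, 108, 97.2 and 101 against 97.6, 110, 96.7 and 99.4, a log2 fold change of 0.01 (SE 0.08, adjusted p = 0.969). An SE of 0.08 was the smallest of the 10 genes, so that these 2 were also the most closely bounded. Fis1 differed from them by its spread. It was 67, 124, 105 and 64 CPM in KO_TAC, against 75.6, 63.9, 66.6 and 64 in KO_sham and 71.4, 93, 74.3 and 71.4 in FF_TAC. KO_TAC 2 and 3 were high and KO_TAC 1 and 4 within the range of the sham hearts. Against KO_sham Fis1 stood at a log2 fold change of 0.43 (SE 0.18, adjusted p = 0.086). Without KO_TAC 1 it was 0.53 (adjusted p = 0.0221) and without KO_TAC 4 it was 0.55 (adjusted p = 0.0277), so the call rests on which library is left out.

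Of the mitophagy genes, Fundc1 was called lower in the knockout after TAC. Fundc1 was 23, 16.8, 17.9 and 18.4 CPM in KO_TAC, against 26.1, 21.3, 24.5 and 23.5 in KO_sham. KO_TAC 2 to 4 were below all KO_sham libraries, and KO_TAC 1 was within their range. TAC in knockouts gave a log2 fold change of -0.32 (SE 0.11, adjusted p = 0.0444), a ratio of 0.804. This call sits at the threshold: it was not made with the haemoglobin term (-0.22, adjusted p = 0.375), nor in 6 of the 8 fits without a single library, where the adjusted p reached 0.119, and it was made in 5 of the 10 other settings. In those fits it was made without the library labelled KO_sham 2 and without KO_TAC 1. It was made when the 3 libraries whose Cpt1a went against their labels were left out together (-0.37, adjusted p = 0.0381). Against FF_TAC, at 22, 21.2, 24.1 and 24.6 CPM, the groups overlapped and the log2 fold change was -0.25 (SE 0.11, adjusted p = 0.139).

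**Figure D3:**
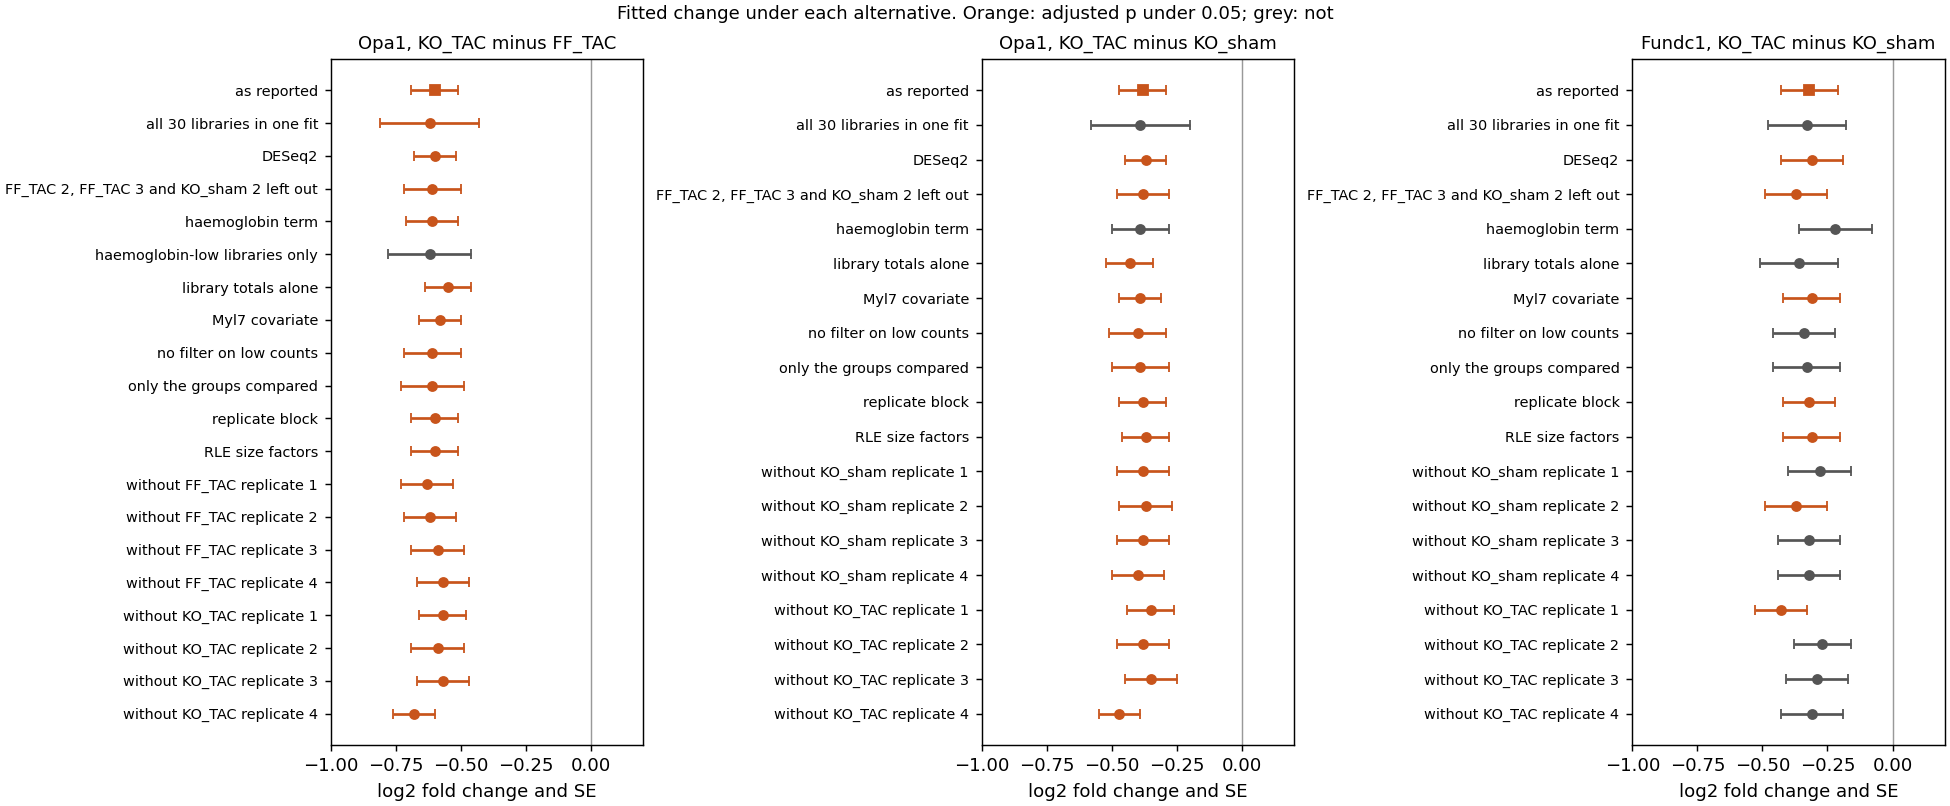
Fitted log2 fold change with SE (horizontal axis) of the 3 called differences under each alternative (rows); orange marks an adjusted p under 0.05 and grey a value that did not pass. Opa1 against FF_TAC stays between -0.68 and -0.55, and Fundc1 against KO_sham is mostly grey, between -0.43 and -0.22.

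The mean of Pink1 was lower than in FF_sham in every other floxed group, without a call. It was 845, 787, 694 and 836 CPM in FF_sham, 709, 695, 647 and 627 in FF_TAC, 639, 809, 630 and 599 in KO_sham, and 598, 563, 551 and 495 in KO_TAC. The KO_TAC values lay below all of FF_TAC and all of KO_sham, and FF_TAC reached into the range of FF_sham. Pink1 stood at a log2 fold change of -0.26 for TAC in controls (SE 0.11, adjusted p = 0.421), -0.24 for the knockout in sham hearts (SE 0.11, adjusted p = 0.944), -0.27 for TAC in knockouts (SE 0.11, adjusted p = 0.0777) and -0.25 for the knockout after TAC (SE 0.11, adjusted p = 0.125). The interaction was -0.01 (SE 0.15). With all floxed libraries in the fit, Pink1 thus stood lower by a like amount in each of the 4 comparisons, which share groups. The KO_sham mean takes in KO_sham 2, at 809 CPM, whose Cpt1a was at the control level. When single libraries were left out, the knockout in sham hearts ranged from -0.35 to -0.20. TAC in knockouts then ranged from -0.32 to -0.17. DESeq2 called the difference of KO_TAC from KO_sham (-0.26, adjusted p = 0.0442), as did edgeR without KO_TAC 1 (-0.32, adjusted p = 0.032).

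Bnip3 had the widest spread of the 10. It was 80.1, 91.7, 85.3 and 113 CPM in FF_sham, 114, 146, 132 and 124 in FF_TAC, 96.9, 139, 99.1 and 76.7 in KO_sham, and 69.1, 207, 204 and 130 in KO_TAC. All FF_TAC libraries were above all FF_sham libraries, and KO_TAC held both the lowest and the 2 highest values of the cohort. Bnip3 stood at a log2 fold change of 0.46 in FF_TAC against FF_sham (SE 0.27, adjusted p = 0.525) and 0.58 in KO_TAC against KO_sham (SE 0.27, adjusted p = 0.12). Without KO_TAC 1, which had 3170 CPM of the atrial marker Myl7, the second was 0.81 (adjusted p = 0.00543), where 40.8% of all genes were called. Outside KO_TAC, the 3 haemoglobin-low libraries had 132 to 146 CPM of Bnip3 and the 9 haemoglobin-high libraries 76.7 to 124. Over all 7 haemoglobin-low libraries the range was 69.1 to 207, which spans that of the high ones. KO_TAC 2 and 3, high in Bnip3, were also the high libraries of Fis1 and had the lowest share of mitochondrial transcripts, 12.1 and 12.4%; whether these are linked was not tested.

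Bnip3l varied over a narrower range. It was 50.5, 73.8, 64.5 and 55.8 CPM in KO_TAC, 60.2, 59.3, 57.1 and 56.4 in KO_sham, 53.3, 61.9, 53.3 and 54.7 in FF_TAC and 59.9, 59.2, 54.6 and 57 in FF_sham. As for Bnip3, KO_TAC 1 held the lowest value of the cohort and KO_TAC 2 and 3 the 2 highest. Bnip3l stood at a log2 fold change of 0.08 in KO_TAC against KO_sham (SE 0.10, adjusted p = 0.585) and 0.16 against FF_TAC (SE 0.10, adjusted p = 0.316).

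In floxed controls TAC gave no call among the 10 genes. By edgeR 0 were called and 1, Pink1, had an unadjusted p under 0.05, where 0% and 11.1% of all genes did, and DESeq2 called 0 (1.08% of all genes). In 1 gene, Bnip3, the groups did not overlap, as in 6.13% of all genes. The knockout in sham hearts likewise gave 0 calls by edgeR and by DESeq2 (0% and 0.0193% of all genes), with 2 at an unadjusted p under 0.05 (5.22% of all genes), Pink1 and Mfn2, and 1 without overlap (6.59%). After TAC the knockout had 4 members at an unadjusted p under 0.05 (31.1% of all genes), and 3 without overlap, Opa1, Pink1 and Mfn1 (13.7%). KO_TAC against KO_sham had 5 (40.6%), and 2 without overlap, Opa1 and Pink1 (23%). By DESeq2 these comparisons gave 2 and 3 calls (19.7% and 30.9% of all genes). The interaction gave 0 calls by edgeR, 1 gene at an unadjusted p under 0.05, Opa1, and 1 call by DESeq2, where 0.0449%, 13.1% and 2.42% of all genes did.

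In the AAV9 cohort the main pattern in the 10 genes was 1 library. PBS_sham 3 had 44.2 CPM of Opa1, against 147 and 124 in PBS_sham 1 and 2, 233 of Mfn2 against 901 and 846, and 24 of Bnip3 against 106 and 89.3. Of the 10 genes 8 were below their level in all other 29 libraries. The 2 that were not, Bnip3l and Fis1, were at 101% and 105% of the mean of PBS_sham 1 and 2, while the others ranged from 24.6% (Bnip3) to 68.9% (Dnm1l). Heart muscle markers in this library were at 39.5% of that mean and lay below the other 29 libraries (24500 CPM). Its endothelial markers were at 205% (1650 CPM, against 551 to 1020 elsewhere), and its smooth muscle and pericyte markers at 300% (2340 CPM, against 595 to 1050). Their part in the levels of the 10 genes was not tested.

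**Figure D4:**
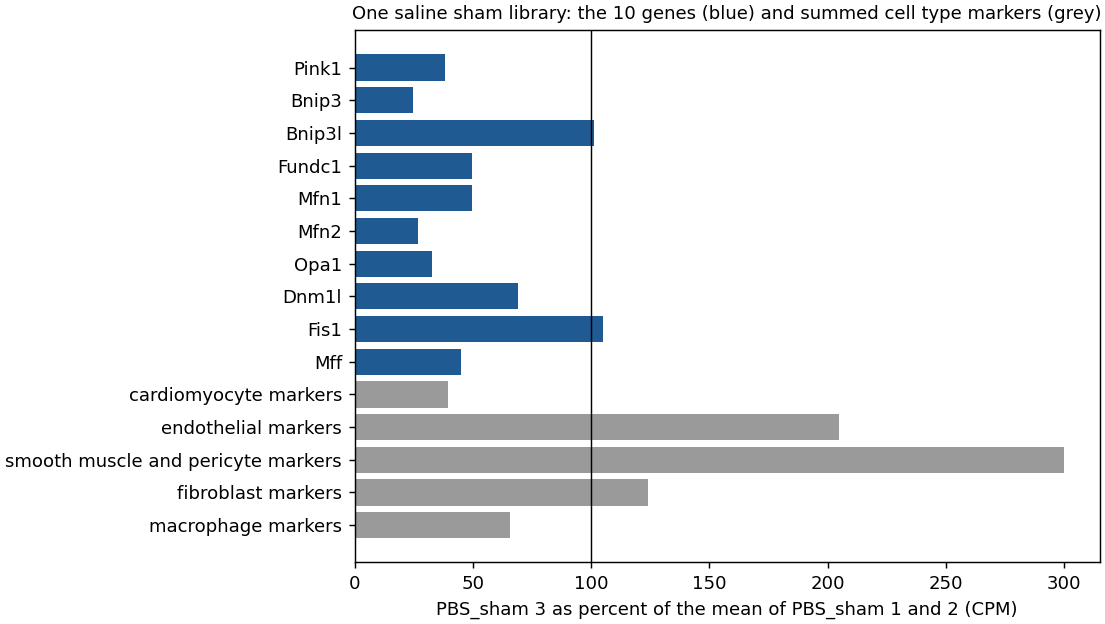
Level in PBS_sham 3 as a percent of the mean of PBS_sham 1 and 2 (horizontal axis, from 0) for the 10 genes (blue) and for summed cell type markers (grey); the line marks 100%. Bnip3l and Fis1 lie at the line, the other 8 genes between 24.6% and 68.9%, and heart muscle markers at 39.5%.

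With or without that library, no member was called in any comparison of the AAV9 cohort. All 14 libraries gave 0 calls by edgeR and 0 by DESeq2 in each of the 5. In PBS_TAC against PBS_sham the share of all genes called was 0.0318% by edgeR and 2.36% by DESeq2, and in AAV_TAC against AAV_sham it was 0.00635% and 0.745%. In AAV_sham against PBS_sham it was 0.0127% and 2.38%, in AAV_TAC against PBS_TAC 0.0381% and 0.223%, and in the interaction 0.00635% and 0.102%. An unadjusted p under 0.05 was found for 2 members in AAV_sham against PBS_sham, Opa1 and Dnm1l, where 20.7% of all genes had one. It was found for 0 in the other 4 comparisons, where 18.5%, 7.05%, 3.19% and 6.95% of all genes had one, in the order above. Without PBS_sham 3 the share of all genes called by edgeR was 0.509%, 0.698%, 0.0377%, 0.352% and 0.00629% in the same order of all 5. For AAV_TAC against AAV_sham and against PBS_TAC, leaving it out was a choice made after seeing the data. Few genes of any kind passed here, so these comparisons say little about small changes in the 10. Leaving out PBS_sham 1 in place of PBS_sham 3 gave 3 calls in AAV_sham against PBS_sham, all higher (Mfn1, Opa1 and Dnm1l), which then rest on the set of libraries that includes PBS_sham 3. The share of all genes called in that fit is not given here, so these 3 calls cannot be read beside it.

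Between the sham groups of this cohort, Opa1 had the largest fitted difference of the 10. It was 170, 159, 199 and 188 CPM in AAV_sham, above all 3 PBS_sham libraries, at a log2 fold change of 0.77 (SE 0.29, adjusted p = 0.187). Without PBS_sham 3 it was 0.39 (SE 0.10, unadjusted p = 0.00154, adjusted p = 0.208). Dnm1l was 114, 110, 119 and 116 in AAV_sham against 107, 94.5 and 69.5, also without overlap, at 0.36 (SE 0.14, adjusted p = 0.195), and at 0.17 without PBS_sham 3 (adjusted p = 0.361). These were the 2 genes without overlap, as 10.7% of all genes were. After TAC the groups with and without the vector overlapped: Opa1 was 169, 160, 161 and 166 in AAV_TAC and 158, 140 and 165 in PBS_TAC, at 0.08 (SE 0.29, adjusted p = 1). The TAC effect on Opa1 differed between vector and saline by -0.69 (SE 0.40, adjusted p = 0.692), and -0.31 without PBS_sham 3 (SE 0.13, adjusted p = 0.645). Fundc1, Dnm1l and Mff lay higher in all AAV_TAC than in all PBS_TAC libraries, at 0.17, 0.10 and 0.08 on the log2 scale and without a call, where 8.33% of all genes did not overlap.

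For Pink1, TAC in vector-treated mice gave a value of the size seen in floxed controls, and again no call. Pink1 was 606, 552, 678 and 720 CPM in AAV_TAC against 692, 766, 788 and 838 in AAV_sham, which overlapped at the edge. TAC with the vector gave a log2 fold change of -0.27 (SE 0.25, adjusted p = 0.937). When PBS_sham 3 was left out of the fit, a choice made after seeing the data, it was -0.27 with an SE of 0.09 (unadjusted p = 0.0109, adjusted p = 0.164). In saline-treated mice it was 0.22 with PBS_sham 3 (SE 0.29) and -0.12 without it (SE 0.12), so that its direction there rests on 1 library. In PBS_TAC against PBS_sham 1 gene, Bnip3l, did not overlap (14.5% of all genes), at 0.16 (SE 0.10, adjusted p = 0.376), and in AAV_TAC against AAV_sham 0 did (10.3%).

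Around these 10 genes, 5 further lists were counted. In the 8 comparisons other than KO_TAC against KO_sham and KO_TAC against FF_TAC, edgeR called 0 genes of any list. At most 0.0449% of all genes were called in any of them, so this says little about the lists. The most genes of a list with an unadjusted p under 0.05 was 6 of 37 (autophagy machinery). This was in PBS_TAC against PBS_sham, where 18.5% of all genes had one. Of 23 mitophagy partners, which include Parkin, its deubiquitinases and the ubiquitin-binding receptors, 3 rose and 1 fell in KO_TAC against KO_sham (median log2 fold change 0.2), and 1 rose and 1 fell against FF_TAC (median -0.05). Over all genes 14.3% were called higher and 11.5% lower against KO_sham, and 7.53% and 6.8% against FF_TAC, so these counts are near or under the background. Sqstm1, the receptor p62, rose from 465 to 989 CPM in KO_TAC against KO_sham (log2 fold change 1.10, SE 0.24, adjusted p = 0.0062), though its exons overlap Mrnip on the opposite strand. It was at 0.59 with the haemoglobin term (adjusted p = 0.196). Nipsnap2, a matrix protein that is exposed on damaged mitochondria, fell from 698 to 480 CPM against KO_sham (log2 fold change -0.53, SE 0.10, adjusted p = 0.00344) and from 711 against FF_TAC (-0.54, SE 0.10, adjusted p = 0.00326). It was the one partner whose call also stood with the haemoglobin term in both comparisons (-0.58, adjusted p = 0.04, and -0.58, adjusted p = 0.0114). Tomm7, an import subunit that holds Pink1 on the outer membrane, rose by 0.59 against KO_sham (adjusted p = 0.0489), and the kinase Src rose by 0.89 against FF_TAC (adjusted p = 0.00793). The groups overlapped in both genes. With the haemoglobin term Tomm7 was at 0.49 without a call (adjusted p = 0.34), and Src was called at 0.95 (adjusted p = 0.022).

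Of 26 partners of fusion and fission 24 were tested. Against KO_sham 2 rose and 4 fell in KO_TAC, where 14.3% of all genes were called higher and 11.5% lower, and against FF_TAC 0 rose and 4 fell, where 7.53% and 6.8% were (medians -0.09 and -0.16). Mtfr1, a regulator of mitochondrial shape, fell from 42.9 to 29.4 CPM against KO_sham (-0.53, SE 0.15, adjusted p = 0.0196). Mtfp1, an inner membrane protein that promotes fission, fell from 132 to 87.2 against FF_TAC (-0.58, SE 0.16, adjusted p = 0.0269). Mief1, an adaptor for Dnm1l, fell from 21.8 to 14.8 there (-0.53, SE 0.12, adjusted p = 0.00971), with a same-strand overlap that makes it uncertain. Chchd6, of the cristae junction complex, and Spire1, an actin nucleator at sites of fission, rose in KO_TAC against KO_sham (1.02, adjusted p = 0.0141, and 0.71, adjusted p = 0.0436). With the haemoglobin term 0 of the 24 were called in either comparison, where 1.75% of all genes were called against KO_sham and 7.23% against FF_TAC. The log2 fold changes were then -0.49 for Mtfr1, 0.70 for Chchd6 and 0.67 for Spire1 against KO_sham. Against FF_TAC they were -0.46 for Mtfp1 and -0.41 for Mief1.

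Of 37 genes of the core autophagy machinery 10 rose and 1 fell in KO_TAC against KO_sham, where 14.3% of all genes were called higher and 11.5% lower. Against FF_TAC 0 rose and 2 fell, where 7.53% and 6.8% of all genes did. The list's medians were 0.06 and 0.02, beside 0.02 and 0.04 over all genes. Atg101, of the initiating kinase complex, rose from 17.7 to 34.4 CPM (0.97, SE 0.29, adjusted p = 0.0249), and Gabarapl1, which couples cargo receptors to the autophagosome membrane, from 117 to 200 (0.78, SE 0.16, adjusted p = 0.00479). The latter overlaps a gene on the opposite strand. Wipi1 rose by 0.72 (adjusted p = 0.0249). The groups overlapped for Atg101 and Wipi1. Ulk2 was called lower in both comparisons, without overlap. It was at -0.33 against KO_sham (adjusted p = 0.0142) and -0.35 against FF_TAC (adjusted p = 0.0159). With the haemoglobin term 0 of 37 were called in KO_TAC against KO_sham, where 1.75% of all genes were. Against FF_TAC 1, Atg10, was called lower (-0.40, adjusted p = 0.0482), where 7.23% of all genes were called.

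Hypoxia-inducible targets were read beside Bnip3, itself such a target. Of 20 genes 8 rose and 1 fell in KO_TAC against KO_sham, where 14.3% of all genes were called higher and 11.5% lower. Against FF_TAC 4 rose and 3 fell, where 7.53% and 6.8% were, and the medians were 0.51 and 0.42. P4ha1, a collagen prolyl hydroxylase, rose from 47.7 to 117 CPM against KO_sham (1.30, SE 0.12, adjusted p = 0.00032) and from 63.5 against FF_TAC (0.90, SE 0.12, adjusted p = 0.000722). Slc2a1, the glucose transporter Glut1, rose from 20.4 to 44.7 against FF_TAC (1.16, SE 0.17, adjusted p = 0.000865), and Ndrg1 by 0.69 (adjusted p = 0.00262), both with an overlap on the opposite strand. With the haemoglobin term all 3 were called against FF_TAC (P4ha1 0.74, adjusted p = 0.00237; Slc2a1 0.97, adjusted p = 0.00488; Ndrg1 0.71, adjusted p = 0.0116). The glycolytic regulator Pfkfb3 (2.31, adjusted p = 0.0283) and Ddit4 (1.14, adjusted p = 0.00854) rose against KO_sham and were at 0.86 and 1.39 with that term, without a call (adjusted p = 0.445 and 0.0609). Vegfa (-0.53), Egln1 (-0.49) and Hk2 (-0.46) fell against FF_TAC without overlap between the groups. Egln1 also fell against KO_sham (-0.39). Of these calls only that of Hk2 stood with the haemoglobin term (-0.51, adjusted p = 0.0195). Bnip3, at 0.58 and 0.27 in the 2 comparisons, was not called in either.

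The last list held 17 genes of mitochondrial import, outer membrane, matrix and biogenesis, and mitochondrial amount itself was not measured. Of the 17 genes 1 rose and 2 fell in KO_TAC against KO_sham, where 14.3% of all genes were called higher and 11.5% lower, and 0 rose and 2 fell against FF_TAC, where 7.53% and 6.8% were (medians -0.01 and -0.14). Tomm40, an import gene with an opposite-strand overlap, rose from 63.2 to 95.1 CPM against KO_sham (0.60, SE 0.19, adjusted p = 0.0343), though the groups overlapped. It was at 0.59 with the haemoglobin term, without a call (adjusted p = 0.231). Cs, citrate synthase, fell from 1100 to 791 CPM against FF_TAC (-0.44, SE 0.09, adjusted p = 0.00692) and from 1120 against KO_sham (-0.49, SE 0.09, adjusted p = 0.00359). Gabpa, a transcription factor of respiratory genes, fell from 40.2 to 29.4 (-0.43, SE 0.13, adjusted p = 0.0409) and from 41.8 (-0.50, SE 0.13, adjusted p = 0.015), and shares exon sequence with Atp5j on the opposite strand. With the haemoglobin term Cs was called against FF_TAC (-0.42, adjusted p = 0.0369) and not against KO_sham (-0.45, adjusted p = 0.0774), and Gabpa in neither (adjusted p = 0.143 and 0.188). The log2 fold change of Opa1 against FF_TAC, -0.60, was beyond those of Cs and Gabpa, though that difference between genes was not tested.

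Across the 8 group means, each gene was set beside all 15309 genes tested in both cohorts, by the root mean square difference of log2 CPM centred within each cohort. Opa1 was nearest to Acat1, a ketone and isoleucine enzyme of the mitochondrial matrix (0.0261), and Mfn2 to Got2, the mitochondrial aspartate aminotransferase (0.017). Fundc1 was nearest to Mars2 (0.0291), Pink1 to Fgf1 (0.0394) and Bnip3 to Chmp4c (0.042). Within the 10 the nearest pair was the fission genes Dnm1l and Mff (0.0357). The nearest member to Opa1 was Mfn2, at 0.113, and to Bnip3 it was Mff, at 0.249, so that Bnip3 lay farthest from the rest. These values rest on 8 means with 3 or 4 libraries each, take in the PBS_sham mean that PBS_sham 3 lowers, and describe likeness only.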

How the data were processed

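Poly(A) RNA of 30 mouse hearts was sequenced strand-specifically. The authors deposited whole-number counts per gene, made with HISAT2 2.1.0 and featureCounts of Subread 1.5.1 on GRCm38, per the submitters' processing notes. Strand setting, multi-mapping rule and annotation release are not given in the sources used here. Rows without a symbol held 0.0192% of counts. Each cohort was fitted with edgeR 4.0.16 in R 4.3.3 (quasi-likelihood test, two-sided, TMM, filterByExpr, 1 mean per group). This tested 15596 and 15745 genes, with Benjamini-Hochberg adjustment over all of them and calls at 0.05, over 10 comparisons. Levels are CPM with TMM factors over all libraries. SE is the fold change over the root of F. Scripts were tested on simulated data. Alternatives covered DESeq2 1.42.0, other scalings and filters, a replicate block, a haemoglobin term, a Myl7 covariate, subsets of libraries and each library left out. All 10 genes are named. Of each other list, the up to 3 called genes with the largest change in KO_TAC against KO_sham and against FF_TAC could be named. The hypoxia-inducible targets that fell are named as well. The members and lists were chosen with earlier results of these data known. Within groups, 42 pairs of libraries showed no duplicate (chi-square per degree of freedom 6.29 to 234).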

Additional observations from a re-analysis of the deposited data

Results flagged for a closer look

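In 3 of 60 groups of 4 libraries tested, over the 10 genes, 1 library lay far from the other 3 relative to the range of the group, and chance alone flags about 1 group in 20. Bnip3l was 61.9 CPM in the library labelled FF_TAC 2, where the other 3 had 53.3 to 54.7. Fis1 was 93 CPM in the same library, against 71.4 to 74.3. Mfn2 was 742 CPM in KO_sham 1, against 834 to 842 in the other libraries labelled KO_sham, which include KO_sham 2 with its control level of Cpt1a.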

How the results depend on the processing

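Direction did not reverse for any called value under any alternative run. The count of members called in KO_TAC against KO_sham, 2 as reported, was 0 with all 30 libraries in one fit and 0 with the haemoglobin term. It was 1, Opa1, with library totals alone, with no filter on low counts and with only the groups compared, and 1 to 5 when single libraries were left out. The highest, 5 without KO_TAC 1, adds Pink1 lower and Bnip3 and Fis1 higher, and the count was 1 without KO_sham 1, 3 or 4 or without KO_TAC 2 or 3. The share of all genes called moved as well, from 25.8% as reported to 1.75% with the haemoglobin term. This share was 21.8% with library totals alone, 9.69% with no filter and 40.8% without KO_TAC 1. Against FF_TAC, where 1 was called, DESeq2 called 2 (Mfn1 and Opa1), haemoglobin-low libraries alone 0, and fits without single libraries 1 to 2, the 2 without KO_TAC 1. There 14.3% of all genes were called as reported, 19.7% by DESeq2 and 0% with haemoglobin-low libraries alone. The knockout interaction had 1 call by DESeq2, where 2.42% of all genes were called. It had 0 to 1 without single libraries, the 1 being Opa1 without KO_TAC 4 (-0.53, adjusted p = 0.0478). In AAV_sham against PBS_sham the count was 0 to 3. Shares of all genes called in the other fits are not given here. Deviations of same-numbered libraries correlated at -0.4 to 0.45 (median 0.03, 24 pairs) in the floxed and -0.46 to 0.42 (median 0.02, 19 pairs) in the AAV9 cohort. Libraries of different numbers had medians of 0.01 and 0. Of the same-numbered pairs 10 and 7 were over 0.1. The medians were thus close, and a batch shared by replicate number was not tested. With a replicate block 2 members were called in KO_TAC against KO_sham, 1 against FF_TAC and 0 elsewhere, as without it. At 14839758 or more counts per library the least abundant gene, Fundc1, was at 11.9 CPM or more in every library.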
